A study of Mus musculus with 18 samples.

Results

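The nuclear-encoded subunits of the mitochondrial respiratory chain and ATP synthase were taken as the genes whose symbols follow the Nduf, Sdh, Uqcr, Cyc1, Cycs, Cox and Atp5 naming patterns, pseudogenes left out, which gave 82 of the 25239 symbols in the count table. By name they comprise 35 genes of complex I, 4 of complex II, 9 of complex III, the carrier gene Cycs, 19 of complex IV and 14 of complex V. The patterns miss subunits listed under other symbols, among them Ndufab1, Atp5pb, Atp5md and Atp5mpl. Counts and sums for complexes I and V below therefore do not cover the whole complex. Ndufa4, named as a complex I gene, is placed with complex IV, where its protein is known to sit. Gene expression was measured by RNA-seq in 18 libraries of mouse stem cells, 3 in each of 6 groups, along a transition from primed to naive pluripotency. EpiSC are labelled primed stem cells and were day 0, D3, D5 and D8 are days 3, 5 and 8 and labelled transient, rES are labelled naive stem cells, and ESC are labelled mESC. The labels give mouse embryo as the source of every group, and name no strain, sex, genotype, growth medium or agent, so what the groups share or differ in besides the label is not known here, nor whether replicates were separate cultures. All p-values therefore measure only the spread between these libraries.

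The respiratory chain moves electrons from NADH (complex I) and succinate (complex II) by way of ubiquinone, complex III and cytochrome c to oxygen at complex IV. Complexes I, III and IV pump protons as they do so, and ATP synthase (complex V) makes ATP from the returning flow. Most subunits are encoded in the nucleus. Several subunits of complex IV and the membrane-ring c subunit of complex V come from small families of paralogs, in which one gene is used broadly and another mainly in muscle, lung or testis. Primed pluripotent cells are known for leaning on glycolysis and naive cells for using both glycolysis and respiration.

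Libraries held 58.36 to 101.61 megacounts (M). Values are counts per M (CPM) after TMM scaling, and levels of different genes are compared only as CPM per kilobase of exon. Differences were tested with edgeR's quasi-likelihood F test in 1 fit of all 18 libraries, and a gene was called when its Benjamini-Hochberg adjusted p over 17545 tested genes was under 0.05. Of the 82 subunit genes, 80 passed the low-count filter. Markers of other cell types were present in the transient groups. The summed level of 8 trophoblast markers was 4.294 to 9.219 CPM in EpiSC, with Cdx2 at 0, and 1316 to 1438 CPM at D3, 827.9 to 891.3 at D5, 653.8 to 803.9 at D8, 169.9 to 175 in rES and 84.53 to 92.72 in ESC. That of 7 fibroblast markers was 30.04 to 46.39 CPM in EpiSC, 452.5 to 594 at D3, 788.9 to 876.7 at D5, 1002 to 1673 at D8, 4.882 to 6.277 in rES, with Dcn at 0, and 119.4 to 164 in ESC. The 7 naive markers summed to 56.74 to 63.21 CPM in EpiSC, with Zfp42 at 0, and to 859.2 to 1543 at D8, 3848 to 3885 in rES and 4063 to 4206 in ESC. The part of these other cell types in the differences below was not tested, and in bulk RNA fewer cells of a type and less RNA per cell cannot be told apart.

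The subunit genes took up between 0.85% and 1.203% of all counts in a library. Across the 6 groups 76 of 80 differed in edgeR's test of all groups together, against 93.2% of all genes tested. The 4 that did not were Cox8a, Ndufs3, Ndufs5 and Uqcr11. Sizes were small. The ratio of a gene's highest to its lowest group mean had a median of 1.70, and 61 of 80 genes stayed under 2, down to 1.203 for Cox7a2, the broadly used form of a small complex IV subunit. Most genes did not peak in 1 state. The highest group mean was in rES for 29 genes, D5 for 21, EpiSC for 13, ESC for 11, D3 for 4 and D8 for 2, and the lowest was at D3 for 29 and D8 for 18.

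Against EpiSC the counts of called genes went through a lower D3, a higher D5 and a lower D8. At D3, 13 subunit genes were higher and 26 lower, beside 34.1% of all genes called higher and 30.2% lower, so 16.25% and 32.5% of the subunit genes. At D5, 31 were higher and 16 lower (38.75% and 20%), with 37.7% and 34.3% for all genes. At D8, 17 were higher and 28 lower (21.25% and 35%), with 42.4% and 34.5% for all genes. In rES, 31 were higher and 14 lower (38.75% and 17.5%), with 31.9% and 37.5% for all genes. In ESC, 28 were higher and 20 lower (35% and 25%), with 31.2% and 36.1% for all genes. The shares called higher at D5 and in rES and ESC, and that called lower at D3 and D8, were thus near the background. The shares called higher at D3 and D8 and lower at D5, in rES and in ESC were below it. With RLE scaling the split moved to 21 higher and 21 lower at D8, 39 and 8 in rES and 36 and 10 in ESC. These 5 comparisons share the EpiSC libraries.

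The median log2 difference of the 80 genes was -0.09 at D3, 0.18 at D5, -0.12 at D8, 0.13 in rES and 0.04 in ESC, next to 0.00, 0.02, 0.18, -0.09 and -0.07 over all genes. Few subunit genes changed 2-fold. Those called with at least a 2-fold difference numbered 7 at D3, 6 at D5, 7 at D8, 6 in rES and 6 in ESC, against 34.8%, 46.7%, 52.5%, 41.4% and 39% of all genes. Across the 5 comparisons they were 14 genes: 8 of complex IV (Cox4i2, Cox5a, Cox6a2, Cox6b2, Cox7a1, Cox7a2l, Cox7b2 and Cox7c), 5 of complex I (Ndufa2, Ndufa7, Ndufa12, Ndufb3 and Ndufv3) and Atp5g1 of complex V, with 0 in complexes II and III. In all 5 comparisons, 4 genes were called higher (Cox4i2, Cox5a, Cox6a1 and Ndufb2) and 5 lower (Cox6a2, Cox7b, Cox7c, Ndufa7 and Ndufb3). Another 15 were higher in some groups and lower in others, among them Atp5a1, Atp5b, Cyc1, Ndufs7, Sdhc and Uqcrc2.

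**Figure D1:**
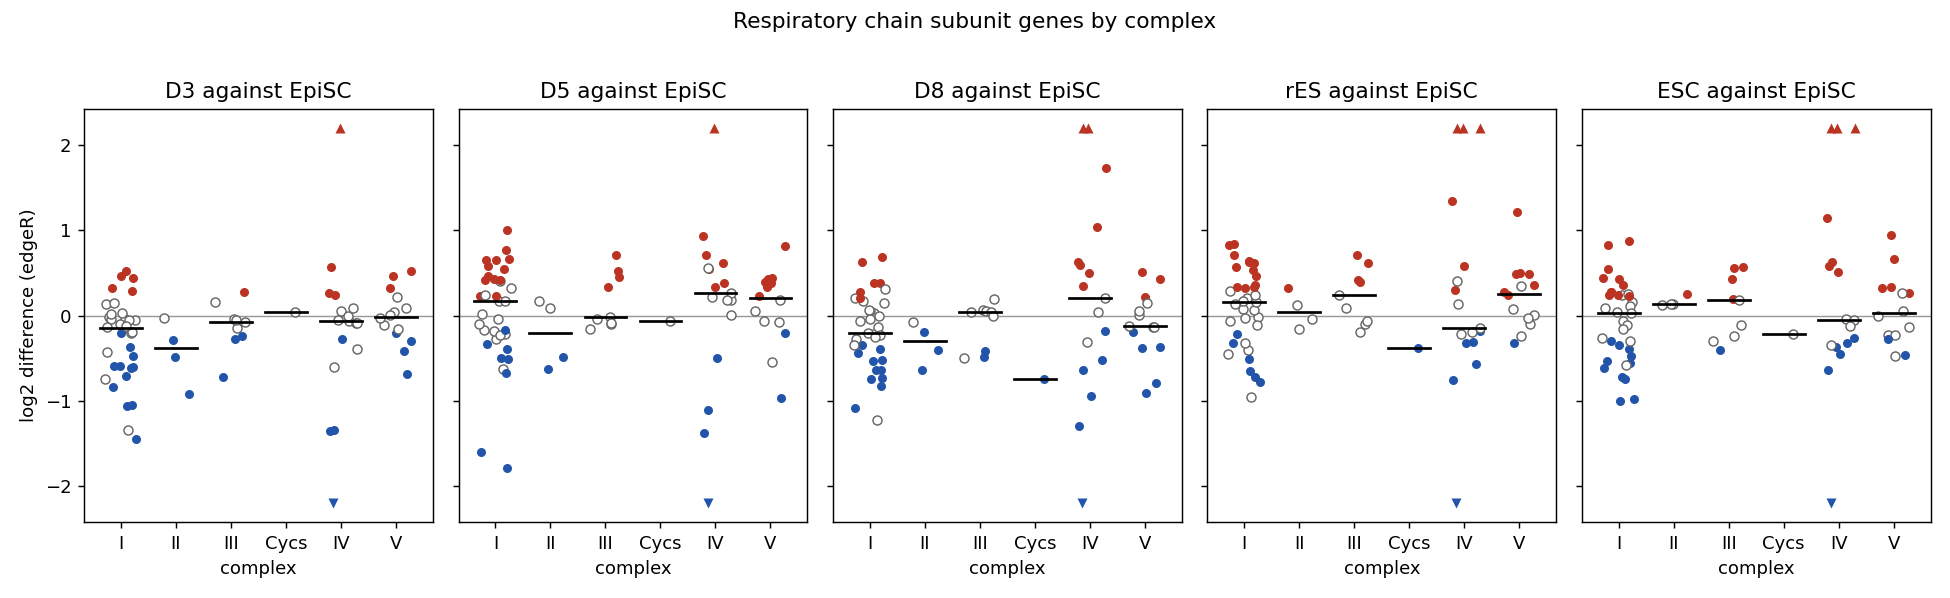
Log2 difference from EpiSC of each tested subunit gene, 1 panel per group (D3, D5, D8, rES, ESC), genes set out by complex on the x axis. Red points were called higher, blue lower, open points were not called, bars are medians and triangles lie beyond ±2.2. Most points sit within 1 log2 unit of 0, and those farther out lie mainly in complexes I and IV.

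Between successive later stages most of the called subunit genes lay in 1 direction, and about as many genes or more were not called in it. From D3 to D5, 39 were higher and 5 lower, while 29.9% and 29.6% of all genes were called higher and lower. The median log2 difference was 0.28, and 0 for all genes. From D5 to D8, 4 were higher and 34 lower, with 25.1% and 22% of all genes, a median of -0.25 and 0.05 for all genes. With RLE scaling this step had 5 higher and 23 lower. From D8 to rES, 41 were higher and 11 lower, with 32.7% and 38.4% of all genes, a median of 0.30 and -0.09 for all genes. The part called in the prevailing direction was 48.75%, 42.5% and 51.25% of the 80 genes in turn. Neighbouring steps share a group, so a group that is high or low for many genes enters 2 of these comparisons with opposite signs. D3 replicate 3 read higher than the other D3 libraries for many subunit genes. Members with at most 1000 exon bases summed to 894, 999 and 1320 CPM in the 3 D3 libraries, and longer members to 7198, 7691 and 8335. Ndufa12, an accessory subunit, was at 17.3 and 19.8 CPM in replicates 1 and 2 and at 47.3 in replicate 3. Ndufs5 was at 1.86, 3.17 and 12.6 CPM, and also spread widely in rES, at 14.0, 1.52 and 7.76 CPM. Both genes have an annotated near-identical copy. Without D3 replicate 3, 49 genes were called higher from D3 to D5, and 8 were higher and 35 lower at D3 against EpiSC.

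Levels added up by complex moved little. Complex I summed to 1220.5, 1310.1 and 1410.7 CPM per kilobase in the 3 EpiSC libraries, 996.44, 1115 and 1365.9 at D3, 1415.5, 1416.1 and 1350.1 at D5, 1204, 1148.9 and 1232.5 at D8, 1500.2, 1417.4 and 1425.8 in rES and 1293.9, 1292.1 and 1161.3 in ESC. The rES libraries all lay above those of EpiSC, and D3 overlapped EpiSC. Complex V summed to 1392.6, 1487 and 1447.9 CPM per kilobase in EpiSC, 1212.4 to 1347.2 at D8 and 1724.2 to 1820.6 in rES, so all rES libraries were above and all D8 libraries below those of EpiSC. As ratios of group means to EpiSC, rES stood at 1.102 for complex I, 1.076 for II, 1.208 for III, 0.9804 for IV and 1.221 for V. ESC stood at 0.9508, 1.113, 1.102, 1.06 and 1.143 in that order. Complex II had the lowest ratios of the 5 complexes, 0.7941 at D3, 0.8561 at D5 and 0.7816 at D8. Complex III stood at 1.179 at D5. No test was made of these sums, which a few abundant genes dominate: in EpiSC Atp5b alone stood at 443 ± 17.6 CPM per kilobase (SD, n = 3), against a median of 45.6 over all members.

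**Figure D2:**
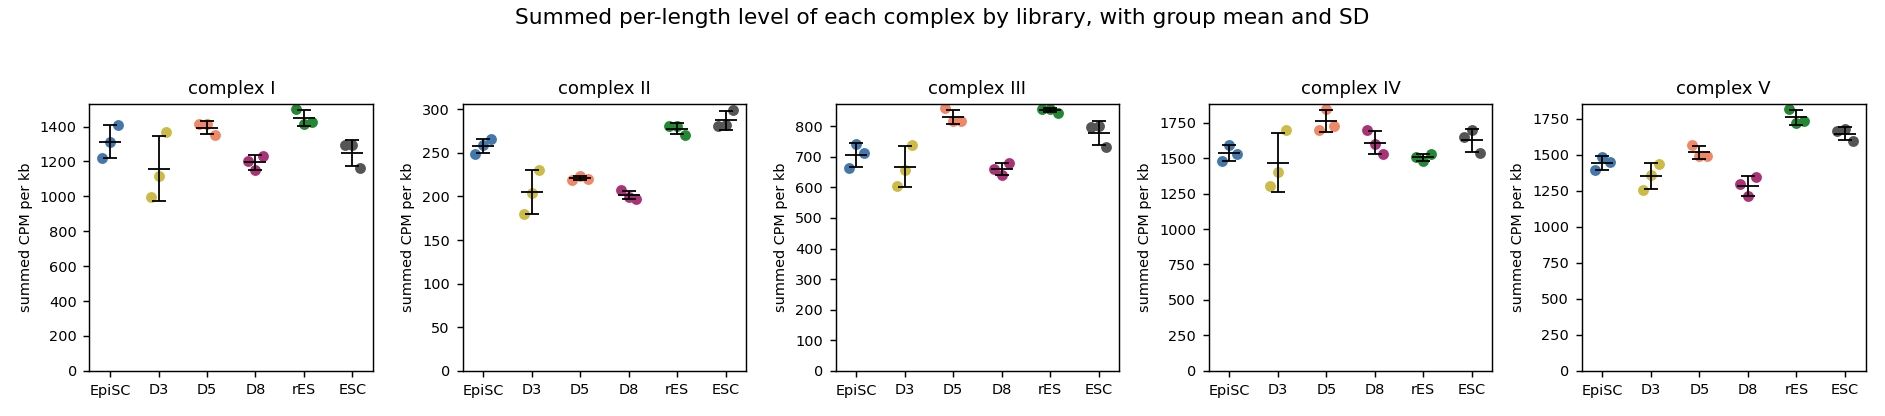
Summed level of the subunits of complexes I to V in each library, in CPM per kilobase of exon, with 1 panel per complex and 3 points per group, and black marks for the group mean ± SD. Complex II is lower at D3, D5 and D8 than in the other groups, and complex V is highest in rES.

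Complex I oxidises NADH at a hydrophilic arm made of 7 conserved nuclear-encoded core subunits, with accessory subunits around it and around the membrane arm. At D5, 13 of 35 complex I genes were higher and 8 lower than in EpiSC, and of the 7 core genes 5 were higher and 1 lower. At D3 it was 5 higher and 12 lower, at D8 6 and 11, in rES 13 and 6, and in ESC 11 and 11. The complex's shares called higher, 37.1% at D5 and in rES, and lower, 34.3% at D3 and 31.4% at D8, were near those of all genes. Ndufs7, the core subunit that holds the last iron-sulfur cluster, was at 79.9, 81.1 and 76.5 CPM in EpiSC, 55.8, 48.3 and 53.0 at D3, 99.0, 115.5 and 112.6 at D5, 102.3, 86.2 and 79.0 at D8, 66.7 to 69.8 in rES and 61.8 to 67.8 in ESC. It was lower at D3 (-0.60 ± 0.09, adjusted p = 1.07e-05) and higher at D5 (0.46 ± 0.09, adjusted p = 0.000127), a D3 to D5 difference of 1.06 ± 0.09 (adjusted p = 1.19e-08). Ndufs8, another iron-sulfur subunit of the core, was at 49.4, 53.2 and 43.5 CPM in EpiSC, 60.1, 63.9 and 59.1 at D3, 76.1, 80.1 and 74.0 at D5, 58.7, 55.7 and 54.8 at D8, 52.2, 53.8 and 53.9 in rES and 55.5, 57.0 and 60.4 in ESC. Its D5 libraries lay above all others (0.65 ± 0.07 against EpiSC, adjusted p = 2.13e-07).

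The NADH-binding end of the arm is formed by Ndufv1, Ndufv2 and Ndufv3. Ndufv2 was at 122, 133 and 121 CPM in EpiSC, 82.9, 85.2 and 76.9 at D3, 112, 118 and 104 at D5, 99.95, 89.6 and 97.5 at D8, 165, 151 and 157 in rES and 152, 147 and 141 in ESC. It was lower at D3 (log2 -0.62 ± 0.07, adjusted p = 3.7e-07) and higher in rES (0.33, adjusted p = 0.00039), with both rES and ESC above every EpiSC library. Ndufv1, which binds NADH itself, was at 87.7, 97.6 and 106.8 CPM in EpiSC, 71.7, 89.6 and 107.8 at D3, 127.7, 136.5 and 124.7 at D5, 137.8, 123.3 and 120.6 at D8, 165.3, 141.3 and 149.4 in rES and 120.8, 125.9 and 128.2 in ESC. All groups but D3 lay above EpiSC, by 0.41 ± 0.11 at D5 (adjusted p = 0.0032) and 0.64 ± 0.11 in rES (adjusted p = 6.39e-05). Ndufv3 is not part of the conserved core. It was at 42.6, 46.6 and 55.4 CPM in EpiSC, 13.6, 15.4 and 24.0 at D3, 68.3, 57.9 and 54.4 at D5, 56.3, 52.9 and 69.7 at D8, 27.4, 26.2 and 30.4 in rES and 25.4, 29.1 and 19.0 in ESC. D3, rES and ESC lay wholly below EpiSC. The differences were -1.45 ± 0.19 at D3 (adjusted p = 2.6e-06), -0.78 ± 0.19 in rES (adjusted p = 0.0012) and -0.98 ± 0.19 in ESC (adjusted p = 0.000173), while D5 and D8 were not called (adjusted p = 0.131 and 0.141). Ndufv3 (chr17:31520115-31531331, plus strand, GRCm38) was thus opposite to Ndufv1 and Ndufv2 in rES.

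Accessory subunits of complex I changed in both directions. Ndufa7, of the hydrophilic arm (chr17:33824572-33838317, plus strand), was at 33.9, 31.7 and 28.7 CPM in EpiSC, 14.1, 14.4 and 17.0 at D3, 12.1, 4.49 and 10.7 at D5, 16.5, 18.4 and 18.3 at D8, 18.6, 20.3 and 18.4 in rES and 22.9, 18.2 and 23.2 in ESC. Every library of the other groups was below EpiSC, and D5 was the lowest group (-1.79 ± 0.23, adjusted p = 1.45e-06). Ndufb9, of the membrane arm (chr15:58933756-58939488, plus strand), went the other way at D5: 47.9, 46.2 and 45.7 CPM in EpiSC, 48.2, 64.8 and 77.3 at D3, 94.0, 97.6 and 87.4 at D5, 76.6, 78.5 and 69.8 at D8, 67.0, 64.6 and 61.1 in rES and 50.4, 52.1 and 48.3 in ESC. Its log2 difference at D5 was 1.00 ± 0.12 (adjusted p = 3.74e-07). An annotated gene, Gm49356, overlaps its exons on the same strand, so reads of the pair could be mixed. Ndufa6 and Ndufa11 were higher in the naive cells. Ndufa6 was at 55.8 to 65.3 CPM in EpiSC, 31.9 to 34.2 at D3 and 85.9 to 89.0 in rES (log2 -0.84 ± 0.08, adjusted p = 9.4e-08, at D3). Ndufa11, which sits in the membrane arm, was at 61.7 to 67.0 CPM in EpiSC and 108 to 116 in rES (0.82 ± 0.09, adjusted p = 2.84e-07). Ndufb5 was at 59.6 to 67.5 CPM in EpiSC, 111 to 118 in rES and 108 to 123 in ESC (0.84 in rES, adjusted p = 2.25e-09). Ndufa10 stood apart at D5, with 163 to 174 CPM against 101 to 115 in EpiSC and 103 to 105 at D3 (D3 to D5 0.71, adjusted p = 3.3e-07).

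**Figure D3:**
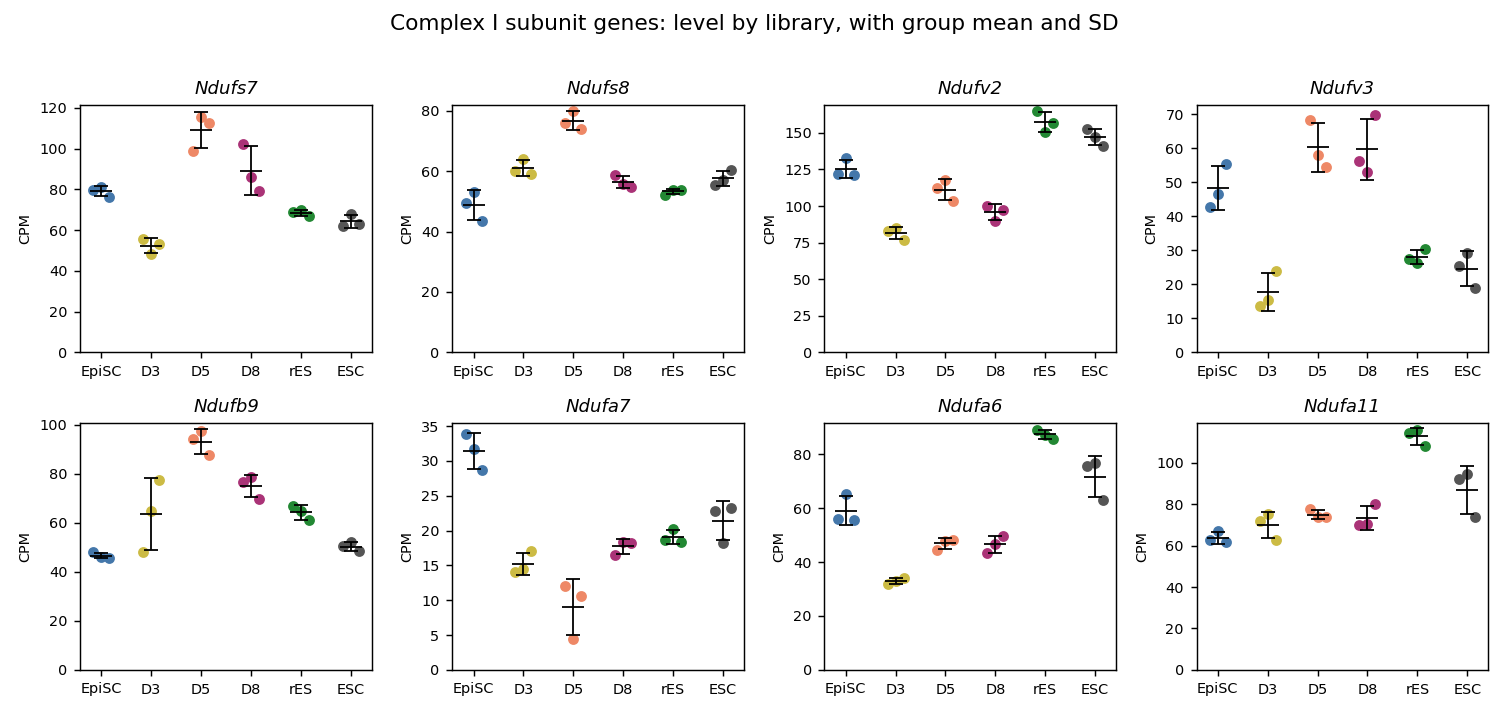
CPM of 8 complex I genes (Ndufs7, Ndufs8, Ndufv2, Ndufv3, Ndufb9, Ndufa7, Ndufa6, Ndufa11) in each library by group, with black marks for the mean ± SD of 3 libraries. Ndufs7 and Ndufv3 are lowest or near lowest at D3 and high at D5 and D8, whereas Ndufv2, Ndufa6 and Ndufa11 are highest in rES.

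Complex II, succinate dehydrogenase, is also an enzyme of the citric acid cycle and has all of its subunits encoded in the nucleus. Of its 4 genes 0 were higher and 3 lower at D3, 0 and 2 at D5, and 0 and 3 at D8, whereas 1 was higher and 0 lower in both rES and ESC. With 4 genes, the 75% lower at D3 and D8 stands beside 30.2% and 34.5% of all genes. Sdhc, a membrane anchor, was at 135, 138 and 125 CPM in EpiSC, 69.5, 69.4 and 70.6 at D3, 90.7, 98.6 and 94.5 at D5, 109, 106 and 86.9 at D8, 130, 126 and 131 in rES and 152, 160 and 164 in ESC. The D3 difference was -0.92 ± 0.08 (adjusted p = 5.51e-09), and ESC lay above every EpiSC library (0.26, adjusted p = 0.00559). Sdhd, the other anchor, was at 119, 126 and 138 CPM in EpiSC, 86.8, 108 and 120 at D3, 83.8, 82.8 and 81.6 at D5, 79.6, 75.8 and 90.1 at D8, 139, 144 and 135 in rES and 139, 132 and 150 in ESC. It was lower at D8 by -0.64 ± 0.10 (adjusted p = 8.97e-06). The catalytic subunits differed less: the flavoprotein Sdha was higher in rES (0.32 ± 0.08, adjusted p = 0.00237), at 324 to 346 CPM against 254 to 291, and the iron-sulfur subunit Sdhb was lower at D3 (-0.48 ± 0.08, adjusted p = 6.35e-05), at 72.3 to 84.6 CPM against 101.8 to 111.9.

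In complex III, which passes electrons from ubiquinol to cytochrome c, D5 was the high point of the transient groups. At D5, 4 of 9 genes were higher than in EpiSC and 0 lower, and from D5 to D8 0 were higher and 5 lower. The 44.4% higher at D5 stands beside 37.7% of all genes. Uqcrc2, a core protein, was at 202, 211 and 182 CPM in EpiSC, 169, 171 and 165 at D3, 309, 333 and 335 at D5, 221, 218 and 175 at D8, 187, 190 and 181 in rES and 209, 217 and 252 in ESC. Each D5 library exceeded every other library of the set (0.71 ± 0.09 against EpiSC, adjusted p = 8.6e-07). The Rieske iron-sulfur protein gene Uqcrfs1 was at 144, 147 and 149 CPM in EpiSC, 174, 183 and 174 at D3, 225.4, 194.8 and 214.7 at D5, 141 to 150 at D8, 136 to 143 in rES and 135 to 137 in ESC (0.53 ± 0.06 at D5, adjusted p = 2.37e-07). Cyc1, cytochrome c1, moved differently. It was at 192, 206 and 214 CPM in EpiSC, 157, 167 and 181 at D3, 206, 204 and 196 at D5, 146, 133 and 156 at D8, 281, 269 and 268 in rES and 236, 236 and 227 in ESC. All rES and ESC libraries lay above EpiSC and all D8 libraries below it (0.42 in rES, adjusted p = 2.53e-05, and -0.49 at D8, adjusted p = 3.29e-06). Uqcr10, a small accessory subunit, was at 71.4 to 75.2 CPM in EpiSC and 116 to 122 in rES (0.70 ± 0.07, adjusted p = 5.19e-08). Uqcrc1, the other core protein, spread widely in EpiSC, at 116, 203 and 149 CPM, and was at 240, 232 and 224 CPM in ESC (0.57, adjusted p = 0.00408).

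Cycs, the somatic cytochrome c that carries electrons from complex III to IV and also takes part in apoptosis, was lowest at D8. It was at 131, 154 and 154 CPM in EpiSC, 125, 148 and 179 at D3, 155, 135 and 130 at D5, 88.1, 84.7 and 88.3 at D8, 109, 116 and 111 in rES and 134, 124 and 120 in ESC. The D8 libraries lay below all others (-0.75 ± 0.11 against EpiSC, adjusted p = 3.94e-06). The annotation holds 4 near-identical copies of this gene, which could take part of its reads. Cyct, the testis form of cytochrome c and not among the 82 genes, was at 0, 0.0634 and 0 CPM in EpiSC, 0 throughout D3, 0.0653 to 0.209 at D5, 1.73, 1.95 and 3.58 at D8, 11.3, 11.4 and 11.7 in rES and 7.42, 7.27 and 5.04 in ESC. It was called higher in ESC than in EpiSC (adjusted p = 9.8e-09).

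Complex IV, cytochrome c oxidase, reduces oxygen, and its nuclear subunits surround a catalytic core encoded by mitochondrial DNA. Of the 17 tested genes, 4 were higher and 4 lower at D3, 7 and 4 at D5, 8 and 6 at D8, 6 and 6 in rES and 7 and 6 in ESC. The 41.2% higher at D5 and 47.1% at D8 were near the 37.7% and 42.4% of all genes. Cox5a, which is present in every form of the enzyme (chr9:57521274-57532426, plus strand), gave the clearest single course. It was at 121.5, 129.5 and 133.3 CPM in EpiSC, 149.7, 154.3 and 156.3 at D3, 249.1, 245.6 and 236.4 at D5, 183.6, 191.9 and 217.5 at D8, 316.1, 326.1 and 330.3 in rES and 297.2, 287.5 and 261.2 in ESC. No library of another group came down to the EpiSC range, and rES lay above all others. The difference was 0.93 ± 0.07 at D5 (adjusted p = 7.08e-10), 1.34 ± 0.07 in rES (adjusted p = 6.8e-12) and 1.14 ± 0.07 in ESC (adjusted p = 6.74e-11). Cox7c (chr13:86044816-86046904, minus strand) did the reverse. It was at 295.5, 332.2 and 280.0 CPM in EpiSC, 119.9, 117.0 and 117.8 at D3, 96.9, 131.7 and 119.9 at D5, 111.1, 131.6 and 126.1 at D8, 173.4, 184.2 and 180.0 in rES and 199.5, 203.9 and 181.7 in ESC. EpiSC was above all other libraries (-1.36 ± 0.10 at D3, adjusted p = 9.24e-10). Gm10012 and Gm12338 are near-identical copies of Cox7c, so its counts are uncertain to that extent.

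Cox7a2l is a paralog of Cox7a2 whose protein is known for joining complexes III and IV into supercomplexes (chr17:83501918-83517330, minus strand). It was at 108.5, 115.6 and 88.9 CPM in EpiSC, 101.0, 105.4 and 105.3 at D3, 140.0, 175.8 and 163.0 at D5, 244.8, 243.8 and 154.7 at D8, 93.3, 94.6 and 86.5 in rES and 94.5, 99.8 and 110.2 in ESC. D8 replicate 3 was lower than the other D8 libraries, within the D5 range. The log2 difference was 1.04 ± 0.14 at D8 (adjusted p = 2.23e-06) and -1.23 ± 0.14 from D8 to rES (adjusted p = 3.26e-07). Gm6969 is a near-identical copy of Cox7a2l, and Cox6c2 and Gm16399 are near-identical copies of Cox6c, so the counts of both genes are uncertain. Cox6c was higher in rES, at 144 to 158 CPM against 88.4 to 112 in EpiSC (0.58 ± 0.08, adjusted p = 6.6e-06). Ndufa4 was lower at D8 and in rES, at 81.5 to 88.8 and 76.8 to 84.0 CPM against 112 to 124 in EpiSC (-0.57 in rES, adjusted p = 7.42e-06), and rES was also below ESC (-0.44, adjusted p = 0.00047). Its paralog Ndufa4l2, not counted among the 82, stayed under 1 CPM in every library.

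Isoforms of complex IV subunits that are used mainly in particular tissues were among the genes with the widest changes, most of them at low levels. The highest group mean of Cox7a1 was 11.3 times its lowest and that of Cox6b2 3.37 times, beside 3.46 for Ndufa7 and 3.41 for Ndufv3 of complex I. Cox4i2, Cox6a2 and Cox7b2 had a group listed at 0, so no ratio is given. Cox7a1 and Cox7b2 are the pair that rose in the naive cells, so their coding sequences are set beside those of their broadly used partners. Cox7a1 (chr7:30184144-30186078, plus strand) is known from heart and skeletal muscle, and Cox7a2 (chr9:79755361-79759878, minus strand) is the form of other tissues. Cox7b2 (chr5:71442824-71548205, minus strand) is known from testis, and Cox7b (chrX:106015700-106022450, plus strand) is the common form. The sequences run 5′ to 3′ along the coding strand of the annotated principal transcript, taken from GENCODE vM21, and capitals mark bases that differ from the partner or face a gap in the alignment.
Cox7a1: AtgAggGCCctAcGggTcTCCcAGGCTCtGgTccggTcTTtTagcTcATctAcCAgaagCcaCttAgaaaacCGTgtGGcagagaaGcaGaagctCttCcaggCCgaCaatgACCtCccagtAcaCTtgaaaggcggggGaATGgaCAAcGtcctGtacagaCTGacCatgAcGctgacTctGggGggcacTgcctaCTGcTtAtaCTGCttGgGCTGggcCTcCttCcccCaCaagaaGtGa
Cox7a2: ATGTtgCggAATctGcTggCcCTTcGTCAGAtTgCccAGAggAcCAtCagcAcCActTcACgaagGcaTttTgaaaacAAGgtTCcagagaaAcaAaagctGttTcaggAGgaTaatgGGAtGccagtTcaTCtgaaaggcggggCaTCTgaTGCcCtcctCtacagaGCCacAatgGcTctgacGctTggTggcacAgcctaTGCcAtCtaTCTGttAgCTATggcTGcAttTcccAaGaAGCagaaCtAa
Cox7b: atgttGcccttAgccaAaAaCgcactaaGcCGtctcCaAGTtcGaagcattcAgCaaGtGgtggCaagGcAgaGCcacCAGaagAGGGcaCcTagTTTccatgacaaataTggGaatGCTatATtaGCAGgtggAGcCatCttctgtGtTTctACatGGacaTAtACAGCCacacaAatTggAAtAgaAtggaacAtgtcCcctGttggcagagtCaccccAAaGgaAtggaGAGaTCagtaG
Cox7b2: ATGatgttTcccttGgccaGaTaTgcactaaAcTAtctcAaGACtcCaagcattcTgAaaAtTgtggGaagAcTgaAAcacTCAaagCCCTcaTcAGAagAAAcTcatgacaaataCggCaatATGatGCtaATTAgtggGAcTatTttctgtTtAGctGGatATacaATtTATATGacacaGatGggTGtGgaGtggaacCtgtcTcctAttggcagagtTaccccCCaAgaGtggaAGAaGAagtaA

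Aligned without gaps counted, Cox7a1 and Cox7a2 share 151 of 243 bases (62.1%) and Cox7b and Cox7b2 share 159 of 243 (65.4%). Neither pair meets the 95% identity by which near-identical copies were counted. Gm13771 and Gm19503 are near-identical copies of Cox7b, so its counts and the Cox7b2 share are uncertain to that extent. The differing bases are spread along each sequence.

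Cox7a1 was at 1.62, 1.52 and 1.76 CPM in EpiSC, 0.473, 1.21 and 2.01 at D3, 1.89, 1.94 and 1.75 at D5, 4.05, 5.36 and 7.07 at D8, 14.1, 12.9 and 14.6 in rES and 9.42, 9.02 and 7.09 in ESC. All D8, rES and ESC libraries lay above EpiSC, and D8 and ESC came close to each other. The log2 difference was 1.73 ± 0.32 at D8 (adjusted p = 9.11e-05), 3.06 ± 0.33 in rES (adjusted p = 1.99e-07) and 2.36 ± 0.33 in ESC (adjusted p = 4.43e-06). rES and ESC did not overlap but the difference was not called (0.70 ± 0.30, adjusted p = 0.0856). Cox7a2 ranged only from 65.9 to 91.0 CPM over all 18 libraries. Per kilobase, Cox7a1 made up 3.25% ± 0.24 of the sum of Cox7a1 and Cox7a2 in EpiSC, 2.61% at D3, 3.68% at D5, 11.2% ± 2.12 at D8, 24.5% ± 0.84 in rES and 17.3% ± 1.17 in ESC (SD, n = 3). The sum of 7 muscle markers was 13.52 to 15.07 CPM in EpiSC, with Myl2, Myod1 and Ckm at 0, 4.241 to 5.617 at D3, 1.444 to 2.057 at D5, 5.029 to 12.21 at D8, with none at 0, 6.507 to 7.246 in rES and 1.736 to 2.628 in ESC. From D5 to D8 this sum and Cox7a1 were both higher, whereas EpiSC had the highest sum and a low Cox7a1. The part of muscle-type cells in the Cox7a1 result was not tested.

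Cox7b2 was at 0, 0.0475 and 0 CPM in EpiSC, 0 in all 3 libraries at D3, 0.112, 0 and 0 at D5, 0.553, 0.947 and 2.31 at D8, 6.20, 4.95 and 5.22 in rES and 1.53, 1.21 and 1.37 in ESC. It was thus near 0 in the first 3 groups and highest in rES. It was called higher in rES than in EpiSC (adjusted p = 2.01e-06) and than in ESC (log2 1.97 ± 0.65, adjusted p = 0.0289). The call against ESC was lost with a replicate block. Cox7b itself fell at D8, from 93.0, 96.9 and 92.1 CPM in EpiSC to 48.4, 41.7 and 57.3 (-0.94 ± 0.11, adjusted p = 6.33e-07), and was at 73.3 to 77.1 in rES. As a share of the pair per kilobase, Cox7b2 rose from 0.0366% in EpiSC to 5.21% ± 2.91 at D8, 14.0% ± 1.76 in rES and 4.33% ± 0.79 in ESC.

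Other isoform pairs did not follow the same course. Cox4i2, known as the hypoxia-responsive lung form of subunit 4 (chr2:152754173-152765037, plus strand), was listed at 0 in all EpiSC libraries and at 5.11, 3.75 and 3.88 CPM at D3, 1.72, 1.27 and 0.658 at D5, 0.977, 1.23 and 0.927 at D8, 0.0636, 0.198 and 0.107 in rES and 0.367, 0.115 and 0.297 in ESC. D3 was above all other groups (adjusted p = 2.47e-08 against EpiSC), with a share of 2.81% ± 0.80 of subunit 4 per kilobase. Its partner Cox4i1 was at 235 to 264 CPM in EpiSC and 359 to 402 in ESC (0.62, adjusted p = 1.55e-06), and was lower in rES than in ESC (-0.49 ± 0.08, adjusted p = 0.00012). Cox6b2, a testis form, was at 12.4, 14.2 and 15.3 CPM in EpiSC, 3.54, 6.64 and 6.32 at D3, 5.92, 6.27 and 7.27 at D5, 5.63, 8.57 and 12.7 at D8, 20.2, 16.9 and 18.6 in rES and 11.4, 12.4 and 9.16 in ESC. It was lower at D3 (-1.34 ± 0.25, adjusted p = 0.000129) and higher in rES than at D8 (1.05, adjusted p = 0.000961). The muscle form Cox6a2 was at 0.626, 0.618 and 0.794 CPM in EpiSC and under 0.11 CPM in every other library, with 0 throughout D3 and D5. It was called lower at D3 (adjusted p = 0.00466). Cox6a2 overlaps Itgad on the other strand, so its few counts are uncertain. Its broad partner Cox6a1 was at 138 to 140 CPM in EpiSC, 181, 186 and 250 at D3 and 219, 236 and 224 at D5 (0.71 at D5, adjusted p = 4.49e-06). Of subunit 8, Cox8a was not called in any comparison with EpiSC, Cox8c stayed at or under 0.26 CPM, and Cox8b had no count in any library.

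**Figure D4:**
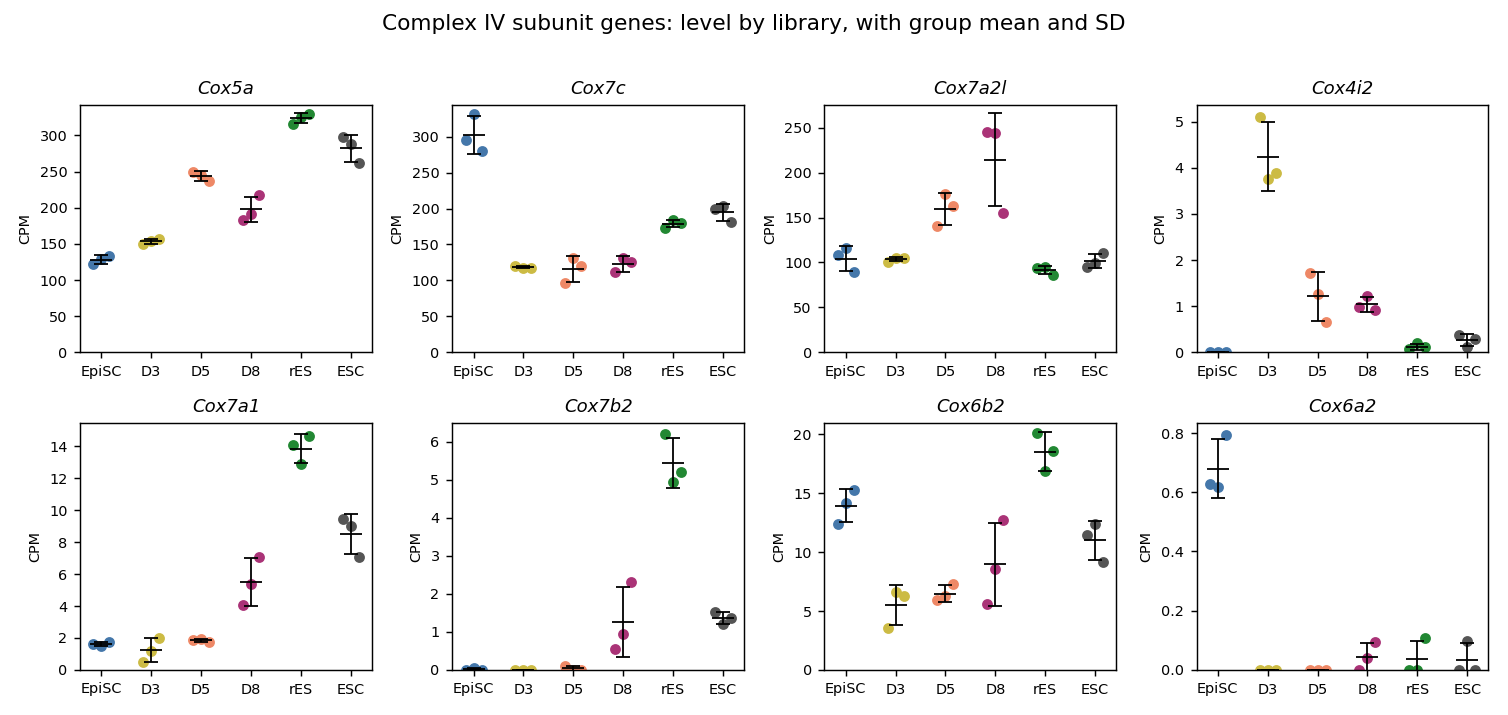
CPM of 8 complex IV genes (Cox5a, Cox7c, Cox7a2l, Cox4i2, Cox7a1, Cox7b2, Cox6b2, Cox6a2) in each library by group, with black marks for the mean ± SD of 3 libraries. Cox5a, Cox7a1 and Cox7b2 are highest in rES, Cox7a2l at D8, Cox4i2 at D3, and Cox7c and Cox6a2 in EpiSC.

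Complex V makes ATP with a rotary head, which holds the subunits encoded by Atp5a1 and Atp5b, driven by a membrane ring of c subunits. Of its 14 genes 3 were higher and 4 lower at D3, 7 and 2 at D5, 3 and 5 at D8, 7 and 1 in rES and 5 and 2 in ESC. The 50% higher at D5 and in rES stands beside 37.7% and 31.9% of all genes, and the 7.14% lower in rES beside 37.5%. Atp5b was the most abundant subunit gene per kilobase in every group. It was at 1852, 1961 and 1819 CPM in EpiSC, 1424, 1504 and 1670 at D3, 1590, 1654 and 1636 at D5, 1506, 1434 and 1407 at D8, 2448, 2380 and 2365 in rES and 2211, 2265 and 2266 in ESC. The transient groups lay wholly below EpiSC, and rES and ESC wholly above it (-0.37 at D8, adjusted p = 8.46e-06, and 0.35 in rES, adjusted p = 2.1e-05). Atp5a1 was at 594, 626 and 603 CPM in EpiSC, 515, 526 and 543 at D3, 765, 765 and 837 at D5, 662, 649 and 801 at D8, 991, 800 and 790 in rES and 933, 957 and 991 in ESC, so it exceeded EpiSC in every library but those of D3 (0.66 ± 0.09 in ESC, adjusted p = 2.25e-06). Atp5d, in the central stalk, peaked at D5: 165, 169 and 175 CPM in EpiSC, 208, 249 and 276 at D3, 341, 282 and 270 at D5, 255, 200 and 230 at D8, 167 to 176 in rES and 133 to 169 in ESC (0.81 ± 0.11 at D5, adjusted p = 4.37e-06). Atp5o, in the peripheral stalk, was at 225.1 to 227.9 CPM in rES against 156 to 166 in EpiSC (0.49, adjusted p = 0.000356). Gm5436 is a near-identical copy of Atp5o. Atp5c1, the gamma subunit of the rotor, was higher in ESC (0.32, adjusted p = 0.000172), at 301 to 316 CPM against 234 to 271.

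The c subunit is made from 3 genes, Atp5g1, Atp5g2 and Atp5g3, whose mature proteins are known to be identical and whose targeting peptides differ. Atp5g1 (chr11:96068852-96075670, minus strand) was at 79.4, 83.4 and 92.8 CPM in EpiSC, 76.5, 88.8 and 97.8 at D3, 108, 127 and 110 at D5, 125, 115 and 124 at D8, 200.4, 196.1 and 195.5 in rES and 158, 165 and 166 in ESC. It was higher from D5 on, most in rES (1.21 ± 0.09, adjusted p = 7.8e-10), with 0.94 ± 0.09 in ESC (adjusted p = 2.79e-08). Atp5g2 (chr15:102662864-102672352, minus strand) was at 236, 244 and 268 CPM in EpiSC, 138, 177 and 152 at D3, 152, 118 and 112 at D5, 141, 122 and 170 at D8, 231, 228 and 240 in rES and 189, 195 and 160 in ESC. It was lower at D5 (-0.97 ± 0.13, adjusted p = 1.97e-06), whereas rES overlapped EpiSC (-0.10, adjusted p = 0.517). Atp5g3 (chr2:73908447-73911326, minus strand) was at 201.8, 225.3 and 252.2 CPM in EpiSC, 288, 319 and 332 at D3, 337, 253 and 269 at D5, 166, 142 and 216 at D8, 334, 310 and 309 in rES and 303, 305 and 246 in ESC. It was higher at D3 (0.47 ± 0.14, adjusted p = 0.00594) and lower from D5 to D8 (-0.72, adjusted p = 0.000302). Per kilobase, Atp5g2 supplied 55.2% ± 1.15 of the 3 genes' sum in EpiSC and 32.9% ± 1.31 at D5, Atp5g3 38.4% and 56.8%, and Atp5g1 6.43% and 10.3%. In rES the shares were 42.8%, 44.8% and 12.4% in the same order. Near-identical copies are annotated for Atp5g1 (Gm10039) and Atp5g2 (Gm10175 and Gm10231), so their counts and these shares are uncertain to that extent. The shares also depend on the length used. With the length of each gene's longest transcript, Atp5g1 supplied 2.96% in EpiSC, 4.72% at D5 and 5.81% in rES.

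**Figure D5:**
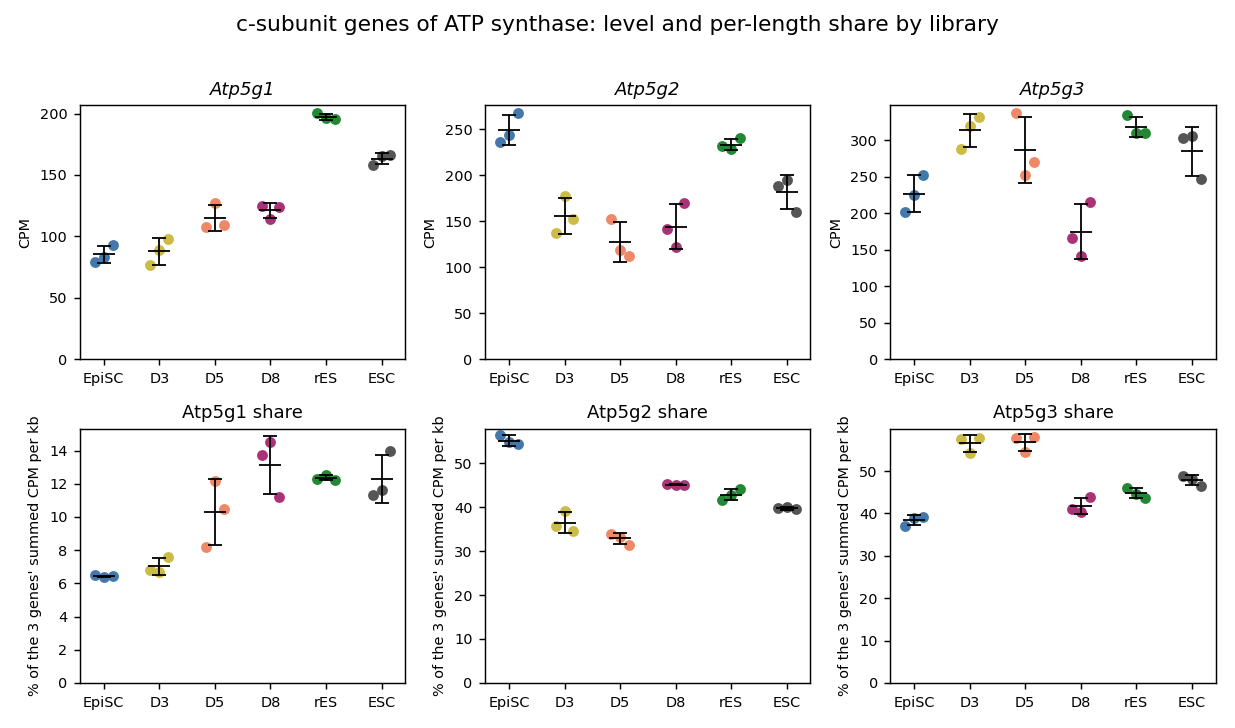
The 3 genes of the ATP synthase c subunit, as CPM in each library by group (top, black marks are mean ± SD) and as percent of their per-kilobase sum (bottom). Atp5g2 leads in EpiSC, Atp5g3 leads at D3 and D5, and Atp5g1 rises to its highest CPM in rES.

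Differences between rES and ESC in these genes were small in size, with a median log2 difference of 0.09 and 0 for all genes. In rES, 17 of the 80 were called higher and 8 lower than in ESC, with 15.6% and 17.9% of all genes. Past 2-fold there was 1, Cox7b2, with 8.42% of all genes. Of these 25 calls, 8 held in every alternative setting listed below. By complex the counts were 7 higher and 2 lower for I, 0 and 2 for II, 3 and 1 for III, 3 and 3 for IV and 4 and 0 for V. Both groups had the same direction from EpiSC for Cox5a, Cox7a1, Atp5b, Atp5g1, Cyc1 and Ndufv3 as given above, in comparisons that share the EpiSC libraries. Without ESC replicate 3, 6 genes were called higher and 5 lower.

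Many subunit genes are short, and short genes as a whole differed between groups and libraries. The 1299 protein-coding genes outside the set with at most 1000 exon bases took up 1.22, 1.28 and 1.32% of counts in EpiSC, 1.00, 1.14 and 1.27% at D3, 1.02, 0.952 and 0.933% at D5, 1.03, 1.06 and 1.19% at D8, 1.44% in each rES library and 1.28, 1.28 and 1.14% in ESC. D3 replicate 3 was the highest D3 library here too, and ESC replicate 3 the lowest ESC library. The part of this in the subunit results was not tested. Among the 41 genes with a coding length above the members' median of 403.5 bases, 24 were higher and 5 lower at D5, and among the 39 others 7 were higher and 11 lower. In ESC the same groups of genes gave 20 and 6, and 8 and 14. Leaving out the 21 members with annotated near-identical copies, 26 of 59 tested genes were higher and 11 lower at D5, and 26 and 8 in rES. Among the 53 tested genes with no exon overlap with another gene, 17 were higher and 12 lower at D5. In rES these were 18 and 11, and in ESC 17 and 14. Their median log2 differences were 0.08 at D5, 0.07 in rES and -0.05 in ESC.

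Of the 82 genes, 67 had an entry in the RefSeq promoter table (GRCm38.p6), with 72 windows from 250 bases before to 50 after a start. Motifs of factors known to act on respiratory genes were searched on both strands. The NRF1 motif GCGCATGC was in 15.3% of the members' windows and 2.71% of all 32851, the ETS motif CCGGAAG of GABPA in 22.2% and 8.86%, the ERR motif CAAGGTCA in 5.56% and 1.56%, and the YY1 motif AAGATGGC in 12.5% and 2.75%. At least 1 of the 4 was in 44.4% and 14.7%. Of the 9 windows with the YY1 motif, 7 belonged to complex I, which held 33 of the 72 windows. Windows with more than 1 of the motifs belonged, among others, to Atp5j, Atp5k, Atp5l and Cox6a1. Whether genes with such windows shared a course was not tested, and values of some of them are given only as examples. The mean of Atp5k was 24.1 CPM in EpiSC, 12.9 at D8 and 30.6 in rES. That of Atp5l was 84.4 CPM in EpiSC, 110.5 at D5 and 67.3 in rES. Near-identical copies are annotated for both Atp5k and Atp5l, so their counts are uncertain to that extent. Cox6a1 was called higher in every group than in EpiSC. Its promoter is shown as 1 example of a window with 2 of the motifs (chr5:115348909-115349208, minus strand, 5′ to 3′ along the gene). The overlapping NRF1 matches on both strands and the ETS match, read here on its other strand, are in capitals.
Cox6a1: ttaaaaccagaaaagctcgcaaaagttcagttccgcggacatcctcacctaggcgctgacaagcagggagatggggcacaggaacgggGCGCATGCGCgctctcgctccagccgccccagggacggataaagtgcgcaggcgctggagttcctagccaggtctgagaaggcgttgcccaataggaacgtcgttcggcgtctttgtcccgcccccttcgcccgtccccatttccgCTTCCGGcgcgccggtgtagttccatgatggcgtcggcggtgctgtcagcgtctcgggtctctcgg

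A match of letters does not show that a factor binds there. The factors themselves were measured as genes outside the set. Of 8 tested regulators, 4 were higher and 2 lower at D3, 4 and 3 at D5 and D8, 6 and 1 in rES and 5 and 1 in ESC, relative to EpiSC. The 50% higher at D3, D5 and D8 stands beside 34.1%, 37.7% and 42.4% of all genes. The 6 of 8 higher in rES and 5 of 8 in ESC stand beside 31.9% and 31.2%. In a list of 8 these are differences of few genes. Ppargc1b, a coactivator of ERR receptors, was at 5.28, 5.24 and 4.95 CPM in EpiSC, 11.3, 9.76 and 10.2 at D3, 43.5, 44.1 and 38.5 at D5, 15.1, 11.3 and 11.9 at D8, 7.21, 8.26 and 7.98 in rES and 10.9, 10.5 and 13.4 in ESC (3.02 ± 0.14 at D5, adjusted p = 6.53e-13). Esrra, which encodes ERR alpha, was at 17.6, 20.0 and 24.5 CPM in EpiSC, 37.8, 48.6 and 65.1 at D3, 83.0, 68.7 and 70.0 at D5, 57.5, 45.1 and 54.5 at D8, 29.2, 26.8 and 25.8 in rES and 14.2 to 18.1 in ESC (1.83 ± 0.17 at D5, adjusted p = 1.82e-08). D5 was the highest group for both. Gabpa, the DNA-binding part of the ETS factor, was higher in ESC (0.95, adjusted p = 3e-08). Gabpb1, of the same list, was lower in ESC (-0.74, adjusted p = 4.16e-07) and at D5 (-0.86, adjusted p = 4.13e-08). Pprc1 was lower at D5 (-0.57, adjusted p = 1.69e-05).

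Genes that build the complexes were counted beside the subunits, with no test of a difference between lists, and their shares read against those of all genes given above. Of 15 complex I assembly factors 0 were higher and 9 lower at D3 (median log2 -0.71), 1 and 7 at D5 (-0.22), 2 and 10 at D8 (-0.79), and 3 and 8 in both rES and ESC. The lower share was 60% at D3, 46.7% at D5 and 66.7% at D8, beside 30.2%, 34.3% and 34.5% of all genes. The iron-sulfur carrier Nubpl and the assembly factor Ndufaf6 were lower at D5 (-1.69 and -1.62), where 5 of the 7 core subunits were higher. The 24 complex IV assembly genes were 11 higher and 2 lower at D5 (45.8% and 8.33%, median 0.22), beside 37.7% and 34.3% of all genes, with Surf1 at 1.30 ± 0.10 (adjusted p = 2.4e-09). Of 13 genes for replication and transcription of mitochondrial DNA, 1 was higher and 9 lower at D3, 2 and 10 at D5 and 2 and 11 at D8 (84.6% lower, median -1.01). Those higher at D5 were the transcription factor Tfb2m (1.16 ± 0.12, adjusted p = 8.73e-08) and the catalytic polymerase subunit Polg (0.52 ± 0.06, adjusted p = 5.73e-07). Among those lower were the single-strand binding protein Ssbp1 (-1.88 ± 0.09 at D5, adjusted p = 1.75e-12) and the accessory polymerase subunit Polg2 (-2.14 at D5, adjusted p = 5.4e-09). Of 78 mitochondrial ribosome genes 13 were higher and 49 lower at D8 (16.7% and 62.8%, median -0.40), beside 42.4% and 34.5% of all genes. From D8 to rES 44 were higher and 10 lower (56.4% and 12.8%), beside 32.7% and 38.4%. Atpif1, the inhibitor protein of ATP synthase, was at 188, 201 and 173 CPM in EpiSC, 61.6 to 80.8 at D3, 64.3 to 73.7 at D5, 61.9 to 67.0 at D8, 67.3 to 69.5 in rES and 77.8 to 91.2 in ESC. All other groups lay below EpiSC (-1.43 ± 0.10 at D5, adjusted p = 1.68e-10).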

How the data were processed

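RNA-seq was made from total RNA depleted of ribosomal RNA, read as paired ends, per the labels' protocols. The submitters' processing notes name bcl2fastq, Trim Galore and HISAT2 with no version, and the mm10 build. The deposited table gives expected counts per gene symbol, whole numbers not scaled between libraries. Which program, annotation and strand option produced the counts is not given in the sources used here. Overlapping genes and near-identical copies are therefore uncertain. Low counts bunch at 4 (a median of 314.5 genes per library have a count of 4, against 157 with 3 and 105.5 with 5). A read pair may therefore have been counted more than once, which would make the true depth smaller than the totals.

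Counts from all 18 libraries were fitted with edgeR 4.0.16 (limma 3.58.1, R 4.3.3) after filterByExpr and TMM scaling (factors 0.945 to 1.05), group being the only term. Standard errors are approximate (absolute log2 difference divided by the root of the F statistic), and log2 values use a prior count of 2. Steps were tested on simulated data. Same-number libraries showed no pairing: over 45 pairs the residual correlation had a median of 0.00036 and ranged from -0.28 to 0.25. Exon lengths, positions and coding sequences came from GENCODE vM21 (GRCm38), and promoters from RefSeq.

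Named genes were the catalytic and core subunits, all paralog pairs, the 4 largest called differences each way per comparison without overlap and with at least 5 CPM, and up to 2 per direction from each companion list. Part of the genes so named is not reported here. The members and lists were chosen with earlier results of these data known. Alternatives were RLE scaling, DESeq2 1.42.0, no filter, 2 groups alone, a replicate block, counts divided by 4 and leaving out each library.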

Additional observations from a re-analysis of the deposited data

How the results depend on the processing

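Counts moved with the scaling, with the groups fitted and with single libraries. In rES against EpiSC, 8 genes were lower with RLE scaling and 7 with DESeq2, against 14. In ESC against EpiSC, 10 were lower with either, against 20. The higher and lower counts there were 39 and 8, and 36 and 10, with RLE scaling, and 45 and 11, and 37 and 15, with 2 groups alone. In rES against ESC, 31 were higher with 2 groups alone, against 17. From D5 to D8, 23 were lower with RLE scaling and 26 with DESeq2, against 34. The cause was not tested.

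With the replicate block, higher and lower counts against EpiSC were 13 and 24 at D3, 31 and 16 at D5, 18 and 27 at D8, 31 and 13 in rES and 28 and 19 in ESC. For rES against ESC they were 15 and 7, from D3 to D5 37 and 5, from D5 to D8 4 and 31, and from D8 to rES 40 and 11. Of 18 libraries 3 correlated best with their own number.

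Leaving out each library in turn, the counts against EpiSC ranged from 8 to 13 higher and 20 to 35 lower at D3 (8 and 35 without D3 replicate 3), 26 to 32 and 13 to 16 at D5, 15 to 20 and 21 to 28 at D8, 29 to 32 and 9 to 12 in rES (9 without EpiSC replicate 2) and 25 to 30 and 12 to 16 in ESC (12 without EpiSC replicate 3, 13 without ESC replicate 3). For rES against ESC they ranged from 6 to 14 and 5 to 7, with 6 and 5 without ESC replicate 3, 9 higher without rES replicate 1, 11 higher without rES replicate 2 and 5 lower without rES replicate 3. From D3 to D5 they ranged from 33 to 49 and 4 to 7, from D5 to D8 3 to 6 and 24 to 31, and from D8 to rES 36 to 40 and 9 to 14. Genes differing among the 6 groups ranged from 74 to 79.

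Per-kilobase ratios to EpiSC moved for complex II at D5 (0.8561 to 0.9031 with the longest transcript's length and 0.9961 without its highest gene), complex II at D8 (0.8762 without it), complex III in rES (1.117) and complex V at D5 (1.136). Isoform shares also moved with the longest transcript's length, which their SDs do not include. Cox4i2 at D3 went from 2.81% to 1.51%. In rES, Cox7a1 went from 24.5% to 20.0%, Cox7b2 from 14.0% to 11.8% and Atp5g1 from 12.4% to 5.81%.

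Of 383 calls, 273 held in every alternative and 110 were lost in some, and no called gene changed direction. Of 337 results not called, 115 were called in some alternative. Depth limits Cox4i2, Cox6a2, Cox7b2 and Cox8c, which had few counts. With 3 libraries per group, small differences can be missed.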

Other observations

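Other mitochondrial genes outside the 82 differed from EpiSC as follows. Of 11 coenzyme Q synthesis genes, 2 were higher and 4 lower at D3, 5 and 2 at D5 and 4 and 4 at D8. In rES 6 were higher and 2 lower, and in ESC 4 and 4. Of all genes, 34.1% were higher and 30.2% lower at D3, 37.7% and 34.3% at D5 and 42.4% and 34.5% at D8. In rES these shares were 31.9% and 37.5%, and in ESC 31.2% and 36.1%. The methyltransferase Coq3 was higher at D5 by 0.95 on the log2 scale. Sdhaf2, which adds the flavin to Sdha, was higher at D5 by 0.92, where 2 of the 4 complex II genes were lower. Tfam, which packages mitochondrial DNA, was lower at D8 by -1.32 (edgeR adjusted p = 9.7e-12). All 3 complex V assembly genes were lower at D8, beside 34.5% of all genes. Within the mitochondrial ribosome list, Mrps6 was higher at D5 by 1.80 and Mrpl42 lower by -1.53. Among subunits outside the naming patterns, Atp5pb was higher at D5 (0.21) and lower in ESC (-0.20). Atp5md was also higher at D5 (0.28) and lower in ESC (-0.47). At D5 Atp5mpl was higher (0.61) and Ndufab1 lower (-0.47).

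Erythroid markers, 5 genes, summed to 0.08028 to 0.3114 CPM in EpiSC, 161.9 to 311.5 at D5 and 51.78 to 118.4 at D8. Primitive endoderm markers summed to 1.886 to 3.348 CPM in EpiSC and 61.19 to 71.48 at D8.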
